A study of Mus musculus with 44 samples.

Results

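Transcript levels of 9 genes of arginine, creatine and ammonia metabolism, chosen by symbol, were examined in the mouse kidney: Gatm, Ckb, Slc6a8, Ass1, Asl, Arg2, Glud1, Glul and Slc38a3. All 9 were found in the kidney RNA table, out of 24733 genes with a value above 0, and all 9 passed the filter of 1 TPM on average, as did 12874 genes in all. TPM is a length-corrected transcript abundance scaled to the same total in every library, and the TPM of a gene's transcripts were summed. The kidneys came from 129SV mice aged 8 to 12 weeks after birth that were fed only at night. Wild-type mice (WT) were compared with mice that the table's headings name as Bmal1 knockouts (KO). Bmal1, listed as Arntl, codes for a transcriptional activator in the circadian clock. Both genotypes shared the strain, the age range and the feeding schedule. Polyadenylated RNA was taken at zeitgeber times (ZT, hours on the light cycle) 0, 4, 8, 12, 16 and 20. Each of the 12 groups held 2 libraries, A and B, so there were 12 WT and 12 KO libraries. The sex of the mice, the tissue range of the deletion and the number of mice per library are not given in the sources used here. The p-values measure the spread between these libraries, which may be partly technical.

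In mammals the kidney is a major site where arginine is made for the circulation. Its proximal tubule takes up citrulline released by the gut, and argininosuccinate synthase (Ass1) and argininosuccinate lyase (Asl) turn it into arginine. Part of that arginine is used on the spot: glycine amidinotransferase (Gatm) moves its amidino group onto glycine, which is the committed step of creatine synthesis, and mitochondrial arginase (Arg2) splits it into ornithine and urea. The proximal tubule also breaks down glutamine taken up by Slc38a3, releasing ammonia in part through glutamate dehydrogenase (Glud1), while glutamine synthetase (Glul) captures ammonia again. These reactions contribute to how much acid leaves the body as ammonium.

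In KO kidneys Gatm and Arg2, whose enzymes use arginine, and the creatine kinase gene Ckb were higher than in WT. The glutamine and glutamate genes Slc38a3, Glud1 and Glul were higher too. Ass1, which acts before Asl in arginine synthesis, was lower. The fitted change ran from a 6.88-fold higher level for Arg2 to a 0.708-fold level for Ass1. Asl was 1.09-fold higher, the calls of Asl and Glul were not kept by other scalings or by a fit with no time term, and the creatine transporter gene Slc6a8 did not pass the test. In WT, Gatm and Ckb rose at the end of the night and fell by the end of the day. Asl peaked in the late day in both genotypes. Glul had fitted night peaks at 16.7 h in WT and 17.0 h in KO, of which only the WT rhythm passed the test. That WT call was lost when any 1 of 6 libraries was left out.

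Promoter sequences of Gatm and Ckb are shown because these 2 genes moved together over the day in WT. They come from the RefSeq promoter table of GRCm38.p6, which held 5 of the 9 genes (Gatm, Ass1, Ckb, Glud1 and Glul). Asl, Arg2, Slc6a8 and Slc38a3 had no entry there. Each line gives, 5′ to 3′ on the gene's strand, bases that lie before the gene's annotated GENCODE M21 start. The Gatm window is chr2:122611304-122611527 and the Ckb window chr12:111672339-111672588, both on the minus strand.
Gatm: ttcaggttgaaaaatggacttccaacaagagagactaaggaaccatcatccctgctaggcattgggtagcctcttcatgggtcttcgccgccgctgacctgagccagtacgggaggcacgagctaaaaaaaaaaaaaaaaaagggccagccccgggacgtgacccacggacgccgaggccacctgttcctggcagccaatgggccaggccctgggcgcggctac
Ckb: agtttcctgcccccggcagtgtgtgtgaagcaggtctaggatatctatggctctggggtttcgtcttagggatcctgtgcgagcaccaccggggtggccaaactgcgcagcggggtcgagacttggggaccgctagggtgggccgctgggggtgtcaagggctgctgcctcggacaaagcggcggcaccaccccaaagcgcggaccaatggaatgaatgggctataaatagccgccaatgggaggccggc
Windows of the 250 bases before the RefSeq start were searched on both strands for 3 sequences that clock factors are known to bind. Bases after the start were not searched. These were the E-box CACGTG of BMAL1 and CLOCK, the D-box TTANGTAA of DBP and its relatives, and TAGGTCA of the ROR and REV-ERB receptors. None of the 3 was found in the windows of Gatm, Ckb or Glud1. The Ass1 window held 1 E-box, on chromosome 2 at 31470234 to 31470239, which lies 36 bases before the RefSeq start and inside the GENCODE gene. The Glul window held 1 TAGGTCA on chromosome 1 at 153899871 to 153899877, and it lies 58 bases before the start. The lines below give 30 bases around each match, on the plus strand, with the match in capitals: chr2:31470222-31470251 for Ass1 and chr1:153899859-153899888 for Glul.
Ass1: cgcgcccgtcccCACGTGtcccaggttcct
Glul: ggtttcctggccTAGGTCAgccaatcaagg
Among all 32851 promoters of the table, searched over the same 250 bases, 6.02% held CACGTG, 2.06% held TTANGTAA and 2.23% held TAGGTCA. A match describes letters in the window and was not tested for binding.

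Before the gene results, 2 libraries need to be set apart. The library labelled KO ZT4 A had clock gene levels unlike the other KO libraries. Its Cry1 level was 1.03 TPM, where the WT ZT4 pair had 0.845 and 1.2 TPM and the other KO libraries 11.5 to 17.8 TPM. Its Nr1d1 level was 23.8 TPM, against 22 and 33 TPM in WT at ZT4 and 1.23 to 3.46 TPM in the other KO libraries. KO ZT12 A had low levels of Y-linked genes, with a sum of 3.31 TPM over 4 genes against 48.0 TPM or more in the other 23 libraries. Of these, Ddx3y was at 0.099 TPM, Eif2s3y at 0.288 TPM and Uty at 0.655 TPM, while Kdm5d was at 2.27 TPM, against 3.74 TPM or more elsewhere. Every genotype result below was therefore also computed without these libraries. Arntl transcripts remained at 4.19 to 6.28 TPM in all 12 KO libraries, so their level does not check the label.

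Kidney tissue is a mixture of cells, and fewer cells of a type cannot be told apart from less RNA per cell. Several marker lists moved with genotype. All 4 male-high kidney genes (Kap, Slco1a1, Cyp7b1 and Cyp2j13) fell in KO, and their summed level ranged from 31100 to 41000 TPM in WT and from 10500 to 36000 TPM in KO. All 3 female-high genes in the table (Cyp4a14, Slc7a12 and Prlr) rose, from 5.56 to 41.0 TPM summed in WT to 21.4 to 808 TPM in KO. Without the 2 libraries, the KO sums were 14900 to 31300 TPM and 174 to 808 TPM. Of 4 markers of the straight proximal tubule (S3), 2 rose and 2 fell (Slc7a13 and Atp11a), with sums of 544 to 861 TPM in WT and 155 to 679 TPM in KO. Of 6 convoluted proximal tubule markers, 3 rose and none fell, with sums of 1880 to 2200 TPM in WT and 2020 to 2600 TPM in KO. All 5 principal cell markers of the collecting duct rose, from sums of 196 to 318 TPM in WT to 262 to 564 TPM in KO. All 4 intercalated cell markers rose as well, from 44.2 to 61.9 TPM in WT to 58.9 to 95.7 TPM in KO. Of other kidney markers, 3 of 4 of the thick ascending limb rose and 1 fell, and all 3 of the distal convoluted tubule and all 4 of podocytes rose. Endothelial markers rose in 2 of 4 and immune markers fell in 2 of 4. These calls stand beside 50.9% of all tested genes higher and 10.0% lower in KO. After median-of-ratios scaling, 44.1% of all tested genes were called, 48.7% of them higher. Convoluted proximal tubule markers then had 2 higher and 1 lower, and endothelial markers 1 higher and 1 lower. Immune markers had 3 lower, and distal convoluted tubule markers 2 higher. The counts of the other lists named here did not change. The proximal tubule sums show that markers of the labelled tissue were high in every library. The part of these shifts in the results below was not tested.

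The whole table also shifted. By limma with Benjamini-Hochberg adjustment over all genes, 60.9% of genes differed between genotypes at an adjusted p under 0.05, with 50.9% higher and 10.0% lower in KO. Of the genes called, 83.6% were higher in KO, and this fell to 48.7% after median-of-ratios scaling and to 73.2% after scaling without mitochondrial genes. The median log2 change over all genes was 0.15 on the TPM scale and about 0 (-0.00173) after median-of-ratios scaling. Mitochondrial transcripts took 38% to 42.5% of TPM in WT and 32.3% to 40.3% in KO. Against that background, 8 of the 9 genes were called, 7 higher and 1 lower, with a median log2 change of 0.67. With the 2 libraries left out, 8 were again called, 7 higher and 1 lower, with a median of 0.70. Of all tested genes 61.3% were then called, 83.1% of them higher. After median-of-ratios scaling 5 were higher and 2 lower (Ass1 and Slc6a8), and Asl and Glul were not called. In that scaling 44.1% of all tested genes were called. Scaling without mitochondrial genes left 5 higher and 1 lower, again without Asl and Glul, where 48.7% of all tested genes were called.

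**Figure D1:**
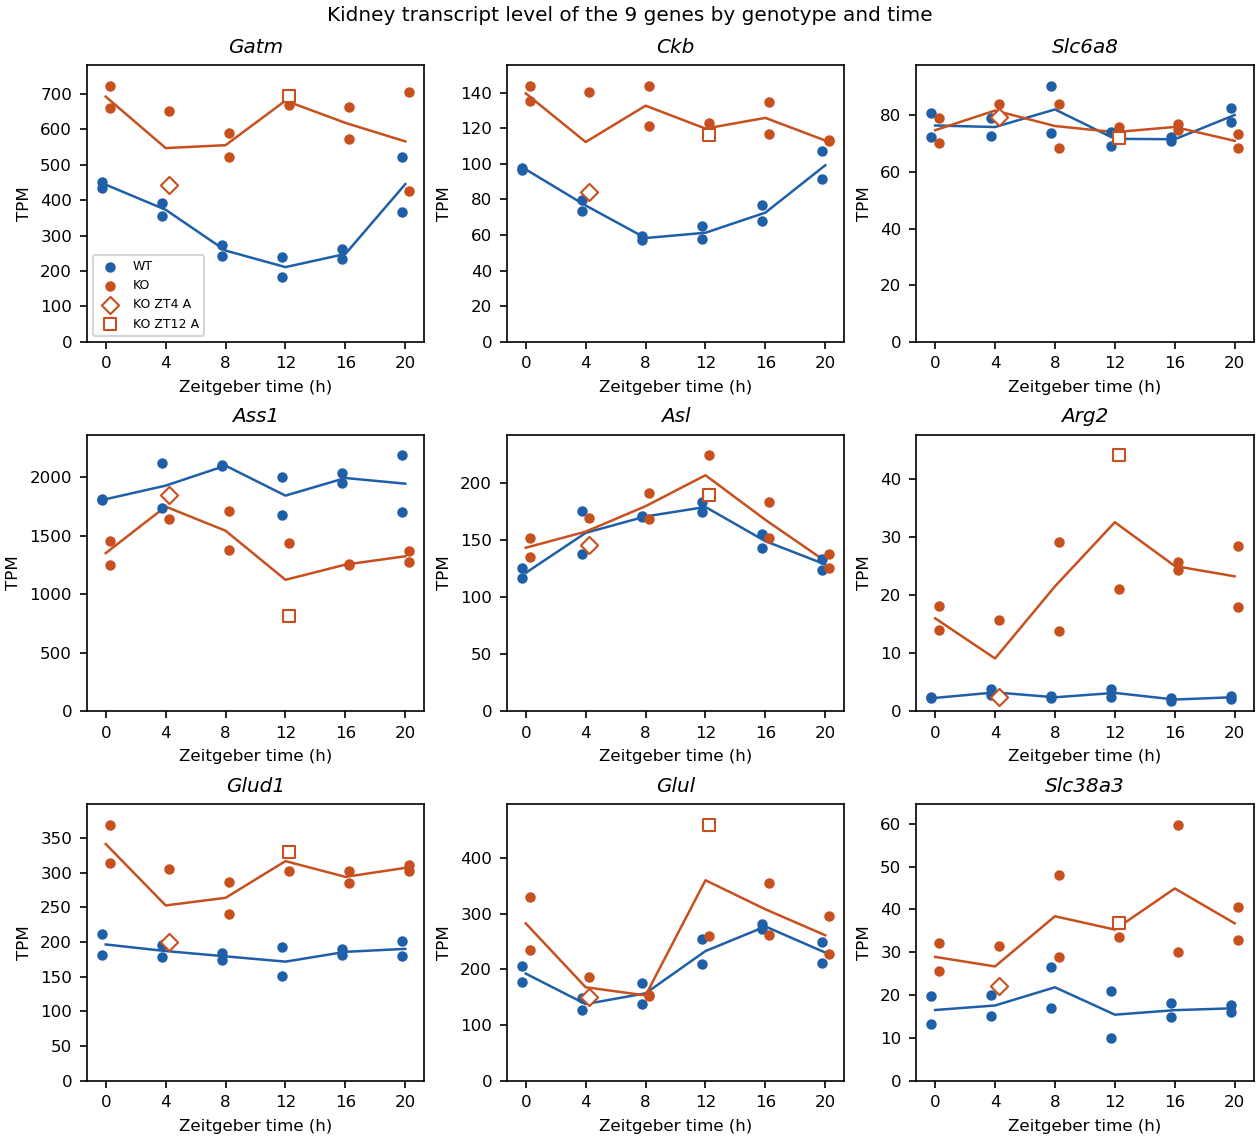
TPM of the 9 genes (vertical axes) by zeitgeber time in hours (horizontal axes) in WT (blue) and KO (orange) kidneys. Points are single libraries, lines join the means of 2, and open symbols mark the libraries labelled KO ZT4 A and KO ZT12 A. In KO, Arg2 reached 13.9 TPM or more in 11 of 12 libraries, while all WT libraries were at 3.87 TPM or less.

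Within a genotype, levels of the 9 genes can be ordered, since TPM is corrected for length. In WT the order by mean was Ass1 (1937 TPM), Gatm (330.0 TPM), Glul (204 TPM), Glud1 (185 TPM), Asl (151 TPM), Ckb (77.4 TPM), Slc6a8 (76.3 TPM), Slc38a3 (17.5 TPM) and Arg2 (2.61 TPM). Neighbours whose WT ranges overlapped were Gatm and Glul, Glul and Glud1, Glud1 and Asl, and Ckb and Slc6a8. In KO the order was Ass1 (1391 TPM), Gatm (610.3 TPM), Glud1 (296 TPM), Glul (255 TPM), Asl (165 TPM), Ckb (124 TPM), Slc6a8 (75.7 TPM), Slc38a3 (35.2 TPM) and Arg2 (21.2 TPM). Glud1 and Glul thus changed places, with overlapping ranges in both genotypes. In KO every pair of neighbours overlapped in range except Ass1 with Gatm, Gatm with Glud1, and Slc6a8 with Slc38a3.

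Creatine synthesis begins with Gatm (ENSMUSG00000027199, GRCm38 chromosome 2, 122594467 to 122611303, minus strand). In WT its level was 453 and 435 TPM at ZT0, 392 and 354 TPM at ZT4, and 274 and 242 TPM at ZT8 (libraries A and B). It was 239.9 and 182 TPM at ZT12, 234 and 262 TPM at ZT16, and 368 and 523 TPM at ZT20. The WT libraries thus fell through the day to a low at ZT12 and were high again at ZT20 and ZT0. In KO the pairs were 723.5 and 662 TPM at ZT0, 443 and 652 TPM at ZT4, 522 and 589 TPM at ZT8, 694 and 669 TPM at ZT12, 573 and 664 TPM at ZT16, and 706.5 and 426 TPM at ZT20. Both KO libraries lay above both WT libraries at 5 of 6 times, and the pairs overlapped at ZT20. The ratio of KO to WT means was 3.23 at ZT12 and 1.27 at ZT20. Over all times Gatm rose by 0.94 log2 units in KO (SE 0.14, adjusted p = 1.49e-05), which is 1.91-fold. Without the library labelled KO ZT4 A the change was 0.99 (SE 0.13), and without both libraries 0.95 (SE 0.13). Most of the signal came from 1 coding transcript, which held a median of 94.6% of Gatm TPM in WT and 94.3% in KO.

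Ckb (ENSMUSG00000001270, chromosome 12, 111669361 to 111672338, minus strand) encodes cytosolic brain-type creatine kinase, which exchanges phosphate between ATP and creatine. Its WT pairs were 97.4 and 96.2 TPM at ZT0, 73.6 and 79.5 TPM at ZT4, 59.4 and 57.1 TPM at ZT8, 57.6 and 64.9 TPM at ZT12, 68.1 and 77.0 TPM at ZT16, and 91.3 and 107 TPM at ZT20. WT levels were lowest at ZT8 and ZT12 and, as for Gatm, highest at ZT20 and ZT0. The KO pairs were 144 and 135 TPM at ZT0, 83.9 and 140.5 TPM at ZT4, 144 and 121 TPM at ZT8, 116 and 123 TPM at ZT12, 135 and 117 TPM at ZT16, and 113 and 113.5 TPM at ZT20. Each KO pair lay above the WT pair of its time. The low value at ZT4 was the library labelled KO ZT4 A, and the other 11 KO libraries all exceeded the highest WT library. Ckb rose by 0.69 log2 units in KO (SE 0.095, adjusted p = 6.95e-06), and by 0.75 (SE 0.084) without the library labelled KO ZT4 A. Ckb and Glud1 have annotated pseudogenes, and reads shared with near-identical copies could be counted for either.

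Slc6a8 (ENSMUSG00000019558, X chromosome, 73673150 to 73682502, plus strand) encodes the transporter that takes creatine into cells. It ranged from 69.2 to 90.5 TPM in WT, with a median of 74.0 TPM, and from 68.5 to 84.1 TPM in KO, with a median of 75.5 TPM. The genotypes overlapped over almost the whole range. The difference was -0.01 log2 units (SE 0.045, adjusted p = 0.826), with a 95% confidence interval of -0.11 to 0.08. After median-of-ratios scaling the difference was -0.16 (adjusted p = 0.00688), so its call depended on the scaling. Slc6a8 TPM was spread over 13 transcripts. A transcript annotated as a target of nonsense-mediated decay held 7.89% to 20.5% of it in WT (median 11.7%) and 12.4% to 34% in KO (median 15.7%). These shares are estimates between transcripts with shared sequence and were not tested.

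Of 6 other listed genes of creatine metabolism, 4 were expressed highly enough to be tested, and 2 of them rose, none fell and 2 were not called, where 50.9% of all tested genes were higher and 10.0% lower. Their median log2 change was 0.21, against 0.15 for all genes tested. Ckmt1, a mitochondrial creatine kinase, rose from a mean of 37.3 to 52.0 TPM (log2 change 0.47, adjusted p = 2.48e-05). Gamt, which methylates guanidinoacetate to creatine, rose from 16.05 to 20.02 TPM (0.31, adjusted p = 0.00113). Slc16a12, a creatine exporter, had 32.0 TPM in WT and 34.5 TPM in KO (0.10, adjusted p = 0.0579), and Slc16a9 had 49.0 and 47.6 TPM (-0.05, adjusted p = 0.641). Without the 2 libraries 2 again rose, and with median-of-ratios scaling 1 did. Of all tested genes, 61.3% were called without the 2 libraries (83.1% of them higher) and 44.1% with that scaling (48.7% of them higher). The muscle creatine kinases Ckm and Ckmt2 were at or below 0.411 TPM in every library.

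Ass1 (ENSMUSG00000076441, chromosome 2, 31470207 to 31520672, plus strand) had the highest level of the 9 genes and was the only one called lower in KO. WT libraries ranged from 1680 to 2188 TPM, with a median of 1981 TPM. KO libraries ranged from 812.5 to 1852 TPM, with a median of 1373 TPM. The lowest was KO ZT12 A and the highest was the library labelled KO ZT4 A. Of the KO libraries, 10 lay below the lowest WT library, and both KO libraries lay below both WT libraries at every time but ZT4. Ass1 fell by 0.50 log2 units (SE 0.085, adjusted p = 5.88e-05). Without both libraries it fell by 0.46 (SE 0.061, adjusted p = 4.72e-06), with KO values of 1246 to 1711 TPM. The main coding transcript held a median of 86.2% of Ass1 TPM in WT and 85.9% in KO.

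Asl (ENSMUSG00000025533, chromosome 5, 130011258 to 130029247, minus strand) completes arginine synthesis from the product of Ass1. Its WT pairs were 126 and 117 TPM at ZT0, 138 and 175 TPM at ZT4, 171 and 170.6 TPM at ZT8, 184 and 174 TPM at ZT12, 143 and 155 TPM at ZT16, and 124 and 134 TPM at ZT20. The KO pairs were 152 and 135 TPM at ZT0, 146 and 169.5 TPM at ZT4, 169 and 191 TPM at ZT8, 189.6 and 225 TPM at ZT12, 152 and 184 TPM at ZT16, and 125 and 138 TPM at ZT20. Both genotypes had their highest pair at ZT12, and the pairs overlapped at 4 of 6 times. The genotype difference was 0.12 log2 units (SE 0.050, adjusted p = 0.0410), close to the median shift of 0.15 over all genes tested. It was -0.03 (adjusted p = 0.644) after median-of-ratios scaling. The call was also lost with scaling without mitochondrial genes (adjusted p = 0.376), with no time term (0.267) and with no filter on low genes (0.0642). It was lost too when any 1 of 13 libraries was left out (WT ZT0 A, ZT0 B, ZT4 A, ZT12 A, ZT12 B, ZT16 A and ZT20 A, and KO ZT0 A, ZT4 B, ZT8 B, ZT12 B, ZT16 B and ZT20 B), with adjusted p-values of 0.0557 to 0.0807. Ass1 and Asl, whose enzymes act in sequence, thus had changes of -0.50 and 0.12.

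Arg2 (ENSMUSG00000021125, chromosome 12, 79130777 to 79156301, plus strand) had the largest change of the 9 genes, and 0.342% of all tested genes changed by more in either direction. In WT it was the lowest of the 9, at 1.74 to 3.87 TPM with a median of 2.43 TPM. The KO pairs were 18.1 and 13.9 TPM at ZT0, 2.51 and 15.7 TPM at ZT4, 29.1 and 13.9 TPM at ZT8, 44.1 and 21.0 TPM at ZT12, 25.7 and 24.3 TPM at ZT16, and 17.96 and 28.5 TPM at ZT20. The value of 2.51 TPM was the library labelled KO ZT4 A, which fell among the WT libraries, and 44.1 TPM was KO ZT12 A, the highest of all. The other 10 KO libraries ran from 13.9 to 29.1 TPM, all above the highest WT library. Arg2 rose by 2.78 log2 units (SE 0.30, adjusted p = 9.08e-07), or 6.88-fold. Without the library labelled KO ZT4 A the change was 3.04 (SE 0.16, adjusted p = 9.45e-11), or 8.24-fold. Without both libraries it was 2.96 (SE 0.15), or 7.79-fold. All Arg2 TPM came from 1 coding transcript. Its 3′ end overlaps the gene Vti1b, which was at a mean of 69.0 TPM in WT and 73.7 TPM in KO. Strand use is not given in the sources used here, so reads of the overlap cannot be told apart.

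**Figure D2:**
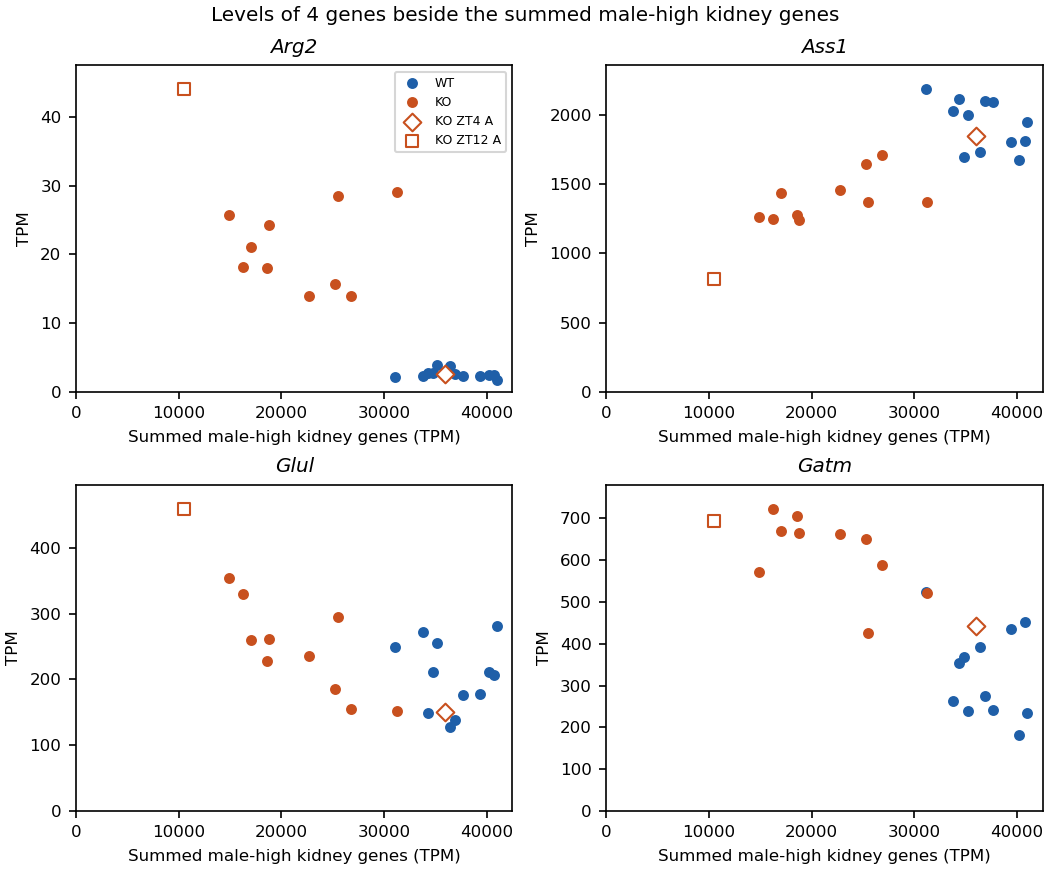
TPM of Arg2, Ass1, Glul and Gatm (vertical axes) against the summed TPM of 4 male-high kidney genes (horizontal axes), with 1 point for each of 12 WT and 12 KO libraries. KO ZT12 A (open square) had 10500 TPM of male-high genes, 44.1 TPM of Arg2 and 812.5 TPM of Ass1, and the library labelled KO ZT4 A (open diamond) lay among the WT points for Arg2.

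The male-high sums of the KO libraries are set beside these genes here. KO ZT12 A combined the lowest male-high sum (10500 TPM) with the highest Arg2 and Glul and the lowest Ass1. The library labelled KO ZT4 A combined a male-high sum of 36000 TPM, within the WT range, with the lowest Arg2, Ckb, Glud1, Glul and Slc38a3 of the KO libraries and the highest Ass1. In the other 10 KO libraries the male-high sum was 14900 to 31300 TPM. The library at the top of that range, KO ZT8 A, lay just inside the WT range, with the highest Arg2 of the 10 (29.1 TPM) and the lowest Glul (152 TPM). KO ZT8 B had 154.5 TPM of Glul, and Glul was low at ZT4 and ZT8 in both genotypes. Time of day thus also differed between the libraries named here. The part of the male-high and female-high shift in these changes was not tested.

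**Figure D3:**
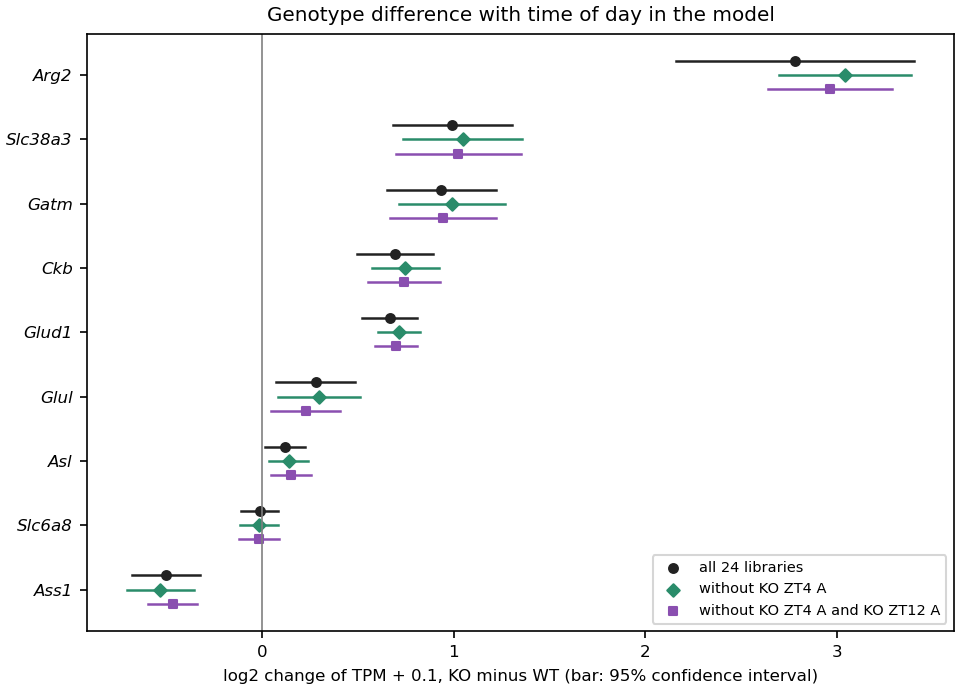
Fitted log2 change of TPM + 0.1, KO minus WT, for the 9 genes (horizontal axis, with 95% confidence intervals), from all 24 libraries (circles), without the library labelled KO ZT4 A (diamonds) and without it and KO ZT12 A (squares). Arg2 stood at 2.78, 3.04 and 2.96, and Slc6a8 intervals included 0 in all 3 fits.

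Among the other genes of arginine transport, the urea cycle and nitric oxide synthesis, 14 of 20 were tested, and 10 rose, none fell and 4 were not called, where 50.9% of all tested genes were higher and 10.0% lower. Their median log2 change was 0.34, against 0.15 for all genes tested. Slc3a2, the heavy chain of several amino acid exchangers, rose from 55.9 to 86.4 TPM (0.63, adjusted p = 1.11e-06). Slc25a15, the mitochondrial ornithine carrier, rose from 44.3 to 57.2 TPM (0.37, adjusted p = 2.1e-06). Slc7a1, a cationic amino acid transporter, rose from 1.32 to 2.19 TPM (0.68, adjusted p = 3.92e-06), and Ddah2, which breaks down methylated arginines, from 9.15 to 12.5 TPM (0.44, adjusted p = 5.07e-06). Oat, ornithine aminotransferase, uses the ornithine that arginase makes and rose from 70.9 to 109.9 TPM (0.64, adjusted p = 6.42e-06). The liver-type urea cycle genes were nearly silent: Arg1 did not exceed 0.138 TPM in any library, and Otc, Cps1 and Nags also fell short of the filter, as did Nos1 and Nos2. Without the 2 libraries 10 again rose and none fell, where 61.3% of all tested genes were called, 83.1% of them higher. After median-of-ratios scaling 8 rose and 1 fell, where 44.1% of all tested genes were called, 48.7% of them higher.

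Glud1 (ENSMUSG00000021794, chromosome 14, 34310727 to 34345265, plus strand) encodes the mitochondrial enzyme that releases ammonia from glutamate. It ranged from 151 to 212 TPM in WT (median 183 TPM) and from 201 to 369 TPM in KO (median 303 TPM). Each KO pair lay above the WT pair of its time. The lowest KO library was the one labelled KO ZT4 A, and the other 11 all exceeded the highest WT library. Glud1 rose by 0.67 log2 units (SE 0.068, adjusted p = 4.66e-07). The rise was 0.72 (SE 0.052) without the library labelled KO ZT4 A. Taking that library out, Arg2, Ckb and Glud1 were the 3 genes whose genotypes did not overlap, where 10.1% of all tested genes did not. These 3 were also the ones apart without both libraries, where 10.4% of genes were. With all libraries in, none of the 9 was free of overlap, and 1.67% of all tested genes were.

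Slc38a3 (ENSMUSG00000010064, chromosome 9, 107650634 to 107669530, minus strand) encodes a glutamine transporter known for its rise in acidosis. WT libraries ranged from 10.0 to 26.6 TPM (median 17.4 TPM) and KO libraries from 22.03 to 59.8 TPM (median 32.5 TPM). At all 6 times both KO libraries exceeded both WT libraries, although KO ranges were wide, such as 59.8 and 30.03 TPM at ZT16. The change was 0.99 log2 units (SE 0.15, adjusted p = 2.08e-05), a 1.99-fold increase, and 1.02 without both libraries.

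Glul (ENSMUSG00000026473, chromosome 1, 153899944 to 153909723, plus strand) codes for glutamine synthetase, which joins ammonia to glutamate. Its WT pairs were 207 and 178 TPM at ZT0, 127 and 148 TPM at ZT4, 138 and 176 TPM at ZT8, 255 and 210.5 TPM at ZT12, 281.5 and 272 TPM at ZT16, and 212 and 249 TPM at ZT20. The KO pairs were 330.2 and 235 TPM at ZT0, 150.3 and 185.5 TPM at ZT4, 152 and 154 TPM at ZT8, 459.5 and 260.3 TPM at ZT12, 354.5 and 261 TPM at ZT16, and 227.5 and 295 TPM at ZT20. Both genotypes were low at ZT4 and ZT8 and higher from ZT12 on. Glul rose by 0.28 log2 units in KO (SE 0.099, adjusted p = 0.0194), and by 0.23 (adjusted p = 0.0269) without both libraries. After median-of-ratios scaling the difference was 0.13 (adjusted p = 0.249) and no longer passed. Nor did it pass with scaling without mitochondrial genes (adjusted p = 0.0813), with no time term (0.183) or with cosine time terms (0.0514). Glul shares its locus with Teddm2 on the opposite strand, which was at 0.246 TPM in WT and 0.226 TPM in KO.

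Of 21 other genes of glutamine, glutamate and ammonia handling, 18 were tested, and 10 rose, 2 fell and 6 were not called, where 50.9% of all tested genes were higher and 10.0% lower. Their median log2 change was 0.29, against 0.15 for all genes tested. Slc12a1, the sodium, potassium and chloride cotransporter of the thick ascending limb, which can also carry ammonium, rose from 236 to 395 TPM (0.72, adjusted p = 5.21e-07). It also stands in the marker list of that segment. Got2, mitochondrial aspartate aminotransferase, rose from 107 to 140.3 TPM (0.39, adjusted p = 1.01e-06). Slc7a8, an exchanger of neutral amino acids, rose from 36.9 to 67.1 TPM (0.86, adjusted p = 5.02e-06). The ammonia channels of the collecting duct and its neighbours rose as well: Rhbg from 13.6 to 20.7 TPM (0.61, adjusted p = 1.23e-05) and Rhcg from 51.0 to 73.6 TPM (0.52, adjusted p = 5.9e-06). Beside them stand the collecting duct and intercalated marker lists, of which every gene rose.

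Pck1, the gluconeogenic enzyme downstream of glutamate breakdown, ranged from 180.5 to 1091 TPM in WT and 345 to 1174 TPM in KO (0.64, adjusted p = 0.0121). Pck1 did not pass after median-of-ratios scaling (0.48, adjusted p = 0.0673). Ggt1, the brush border enzyme that splits glutathione and releases glutamate, fell from 810.3 to 544.5 TPM (-0.59, adjusted p = 3.02e-06). Gpt, alanine aminotransferase, fell from 10.6 to 8.10 TPM (-0.36, adjusted p = 0.0425). The Gpt call was lost without the library labelled KO ZT4 A (adjusted p = 0.0531), without KO ZT12 A (0.0570) and without both (0.0704). Without the 2 libraries 12 of the 18 rose and 1 fell, where 61.3% of all tested genes were called, 83.1% of them higher. After median-of-ratios scaling 7 rose and 3 fell, where 44.1% of all tested genes were called, 48.7% of them higher.

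**Figure D4:**
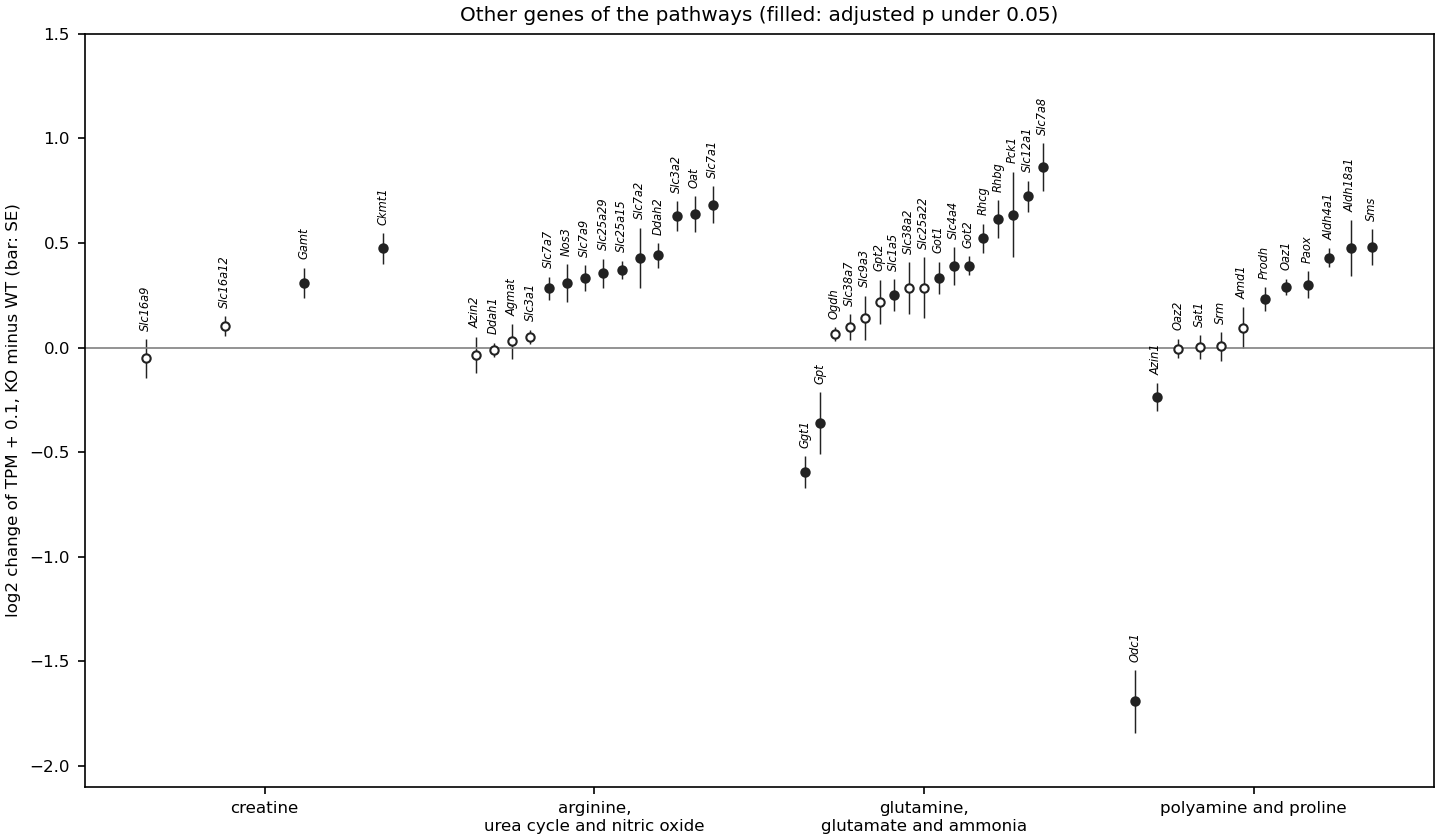
Fitted log2 change of TPM + 0.1, KO minus WT (vertical axis), with standard errors, for tested genes of 4 pathway lists, with 2 genes left out of the plot. Filled points passed an adjusted p of 0.05. Odc1 lay lowest at -1.69, and Slc7a8 highest at 0.86.

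Daily rhythm was tested with a 24-hour cosine in each genotype, and peak-to-trough is the fitted maximum minus minimum in log2 units. In WT 4 of 9 genes passed, where 13.7% of all tested genes did. Gatm had a peak-to-trough of 1.18 (SE 0.19, adjusted p = 8.35e-04) with a fitted peak at 23.7 h. Ckb had 0.82 (SE 0.14, adjusted p = 0.00186) with a peak at 22.1 h. Both thus peaked at the end of the dark, feeding phase. Glul had 0.96 (SE 0.24, adjusted p = 0.0293) with a peak at 16.7 h, in the middle of the night. The Glul call was lost without WT ZT4 A, ZT4 B, ZT8 A, ZT16 A, ZT16 B or ZT20 B, with adjusted p-values of 0.0502 to 0.0861. Asl had 0.56 (SE 0.10, adjusted p = 0.00275) with a peak at 10.1 h, in the later part of the day. Ass1, the other enzyme of arginine synthesis, had 0.08 (SE 0.16, adjusted p = 0.936).

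In KO 1 of 9 genes passed, where 3.64% of all tested genes did. It was Asl, with a peak-to-trough of 0.57 (SE 0.10, adjusted p = 0.00973) and a peak at 10.6 h, close to the WT value in size and time. Fitting each genotype alone, the KO rhythm of Asl did not pass (adjusted p = 0.131). Glul had 0.97 (SE 0.24) at 17.0 h, with an adjusted p of 0.0621. Without KO ZT12 A, the library with 459.5 TPM of Glul, it was 0.94 with a peak at 18.5 h and passed (adjusted p = 0.0156). It also passed without KO ZT0 A (0.0226), KO ZT16 B (0.0458) or KO ZT20 A (0.0413). Gatm had 0.12 (SE 0.19, adjusted p = 0.911) and Ckb 0.01 (SE 0.14, adjusted p = 0.9997). Arg2 had the largest fitted value in KO, 1.74 (SE 0.51, adjusted p = 0.113), but without the library labelled KO ZT4 A it was 0.92 (SE 0.31, adjusted p = 0.176) and without both libraries 0.68 (SE 0.30, adjusted p = 0.30).

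**Figure D5:**
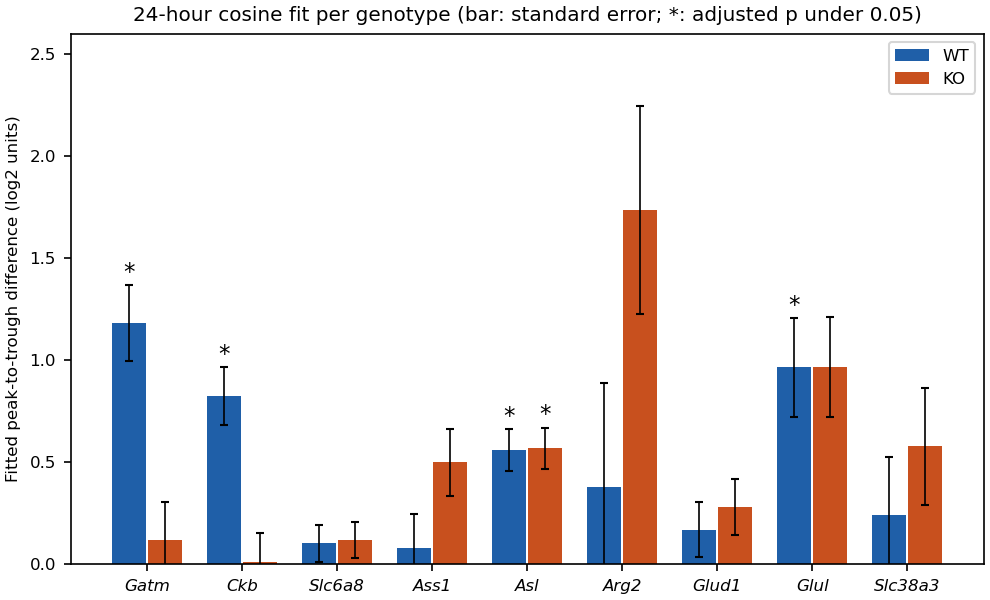
Fitted 24-hour peak-to-trough difference in log2 units (vertical axis) of the 9 genes in WT (blue) and KO (orange), with standard errors, from 12 libraries each. Asterisks mark an adjusted p under 0.05. Gatm and Ckb had 1.18 and 0.82 in WT and 0.12 and 0.01 in KO, and Asl had 0.56 and 0.57.

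Because a rhythm called in 1 genotype alone does not compare the genotypes, their cosine terms were also compared directly. None of the 9 genes passed this limma test, where 0.629% of all tested genes did, and 3 had an unadjusted p under 0.05. Gatm was the closest, with KO lower by 1.06 log2 units in peak-to-trough (adjusted p = 0.0599), followed by Ckb, lower by 0.81 (adjusted p = 0.113), and Arg2 (adjusted p = 0.344). The library labelled KO ZT4 A decided the result for Ckb, since without it the adjusted p was 0.00243, with 0.25 in KO against 0.82 in WT. Without both libraries it was 0.00322. For Gatm the adjusted p was 0.0556 without the library labelled KO ZT4 A and 0.112 without both, and it passed without KO ZT0 A (0.0383) or KO ZT20 B (0.0372). Asl and Glul differed between genotypes by 0.01 and less than 0.01 (0.00289) in peak-to-trough (adjusted p = 0.952 and 0.986).

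Rhythms of the other pathway genes in WT fell at both times of day. In the arginine list 5 of 14 tested genes passed in WT and 2 in KO, where 13.7% and 3.64% of all tested genes did. Azin2 (0.98, peak 9.55 h, adjusted p = 8.53e-04) and the cystine and cationic amino acid carrier gene Slc7a9 (0.71, peak 9.73 h, adjusted p = 0.00133) had peaks near that of Asl. Slc25a15 (0.41, peak 23.2 h, adjusted p = 0.00139) and Slc3a2 (0.55, peak 23.1 h, adjusted p = 0.0252) had peaks near that of Gatm, and Oat (0.61, adjusted p = 0.0394) at 20.8 h. Slc7a9 (0.70, peak 11.1 h, adjusted p = 0.00753) and Slc25a15 (0.32, peak 18.9 h, adjusted p = 0.0258) were the genes called in KO.

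In the ammonia list 5 of 18 passed in WT and 0 in KO, where 13.7% and 3.64% of all tested genes did. In KO 6 had an unadjusted p under 0.05, as did 2711 of all 12874 tested genes. Rhbg had 0.62 (peak 22.5 h, adjusted p = 0.00668), Slc7a8 0.81 (peak 23.5 h, adjusted p = 0.0321), Gpt 1.02 (peak 11 h, adjusted p = 0.0403), and the sodium and proton exchanger Slc9a3 0.65 (peak 8.89 h, adjusted p = 0.0452). None of the 4 creatine genes passed in either genotype, by adjusted or unadjusted p. No gene of these 3 lists passed the test of a rhythm difference, where 0.629% of all tested genes did. In the arginine, creatine and ammonia lists 3, 0 and 4 genes had an unadjusted p under 0.05, as did 1758 of all 12874 tested genes. Without the 2 libraries the ammonia list had 6 genes called in WT and 2 in KO, and 1 difference. The creatine list then had 1 gene called in WT. Of all tested genes, 19.9% passed in WT, 4.75% in KO and 0.66% in the difference without the 2 libraries.

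Likeness of pattern was described by the Pearson correlation of log2(TPM + 0.1) over the 24 libraries, which share genotype and time. Gatm was most like Tfpi2 (r = 0.974) and Slc3a2 (0.958). Ckb was most like Rps2 (0.961) and Pgam1 (0.949), and Slc6a8 like Stx2 (0.749) and Resf1 (0.74). For arginine synthesis, Ass1 was most like Acsm2 (0.94) and Pecr (0.937), and Asl like Slc7a9 (0.879) and Pnpla2 (0.844). Arg2 was most like Aplp2 (0.972) and Kng2 (0.971). Glud1 was most like Megf9 (0.966) and Wdr5 (0.959), Glul like Slc9a3r2 (0.873) and 6430548M08Rik (0.868), and Slc38a3 like Slc5a10 (0.929) and Hip1r (0.919). Among the 9 genes themselves, Gatm and Ckb correlated at 0.854 over the 12 WT libraries and 0.47 over the 12 KO libraries, or 0.167 over the 10 KO libraries without the 2 that stand apart. Ass1 and Arg2 correlated at -0.195 over the WT and -0.744 over the KO libraries, or -0.583 over those 10.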

How the data were processed

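Polyadenylated RNA of 24 kidney libraries was analysed, grouped by genotype and time from the labels. The authors deposited TPM per transcript, made with kallisto 0.42.4 per the submitters' processing notes, which name the builds mm10 and GRCm38. The annotation release and strand use are not given in the sources used here. The deposited TPM sum to 999999 to 1000001 per library, so depth is unknown and no counting interval was computed. The 4C-seq files of the series were not used here.

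Transcripts were summed to genes through GENCODE M21 by transcript identifier without version (86119 of 88198 matched, and the rest held 1.35% to 2.24% of TPM). All 24 sample columns were used. Values were log2(TPM + 0.1), with fold changes on that scale, which understates changes of low genes. Genes averaging 1 TPM or more were tested with limma 3.58.1 in R 4.3.3 (trend and robust), with Benjamini-Hochberg adjustment over all 12874 genes and a threshold of 0.05. The genotype difference had time as a 6-level factor. Rhythm was the F test of a 24-hour cosine and sine per genotype with a shared spread, and the rhythm difference the F test of their difference. Tests were two-sided or F tests, and were first tested on simulated data. The 9 genes, the pathway lists and the markers were chosen with earlier results of these data known. From each list the 4 genes with the smallest p-value in a test were named, plus genes next to the 9 in a pathway. Of the genes this rule names, 2 are counted in their lists and are otherwise not reported here. For each of the 9 genes, the 2 most correlated genes were named. Alternatives covered the pseudocount, the filter, scaling, the replicate letter, the model and each library left out. Leaving out both libraries that stand apart, alone, in correlations or with each genotype fitted alone, and leaving out the library labelled KO ZT4 A with median-of-ratios scaling were chosen after seeing the data. Sequences are from RefSeq (GRCm38.p6).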

Additional observations from a re-analysis of the deposited data

How the results depend on the processing

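Of 1314 values of the 9 genes under alternatives, 1260 kept their direction and side of the threshold, 32 lost the call, 16 gained it and 6 changed sign. Asl changed sign with median-of-ratios scaling (-0.0309, and -0.0241 also without the library labelled KO ZT4 A) and was not called in 13 of the 24 fits that left out 1 library. Slc6a8, not called, changed sign in 4 of those fits, over a range of -0.0266 to 0.0106 in all 24. Leaving out 1 library gave 7 to 8 of 9 genes called for genotype, 3 to 4 for WT rhythm, 1 to 2 for KO rhythm and 0 to 1 for the rhythm difference. In those fits 57.6% to 62.9% of all tested genes were called for genotype and 9.27% to 16.6% for WT rhythm. For KO rhythm the share was 2.11% to 4.86%, and for the rhythm difference 0.287% to 0.87%. Glul was the gene lost in WT, in 6 fits. With time as a 6-level factor, 2 genes (Gatm and Ckb) were rhythmic in WT and 0 in KO, where 4.47% and 0.217% of all tested genes were. In KO 2 genes (Asl and Glul) passed with median-of-ratios scaling, with array weights and without both libraries that stand apart. Of all tested genes, 4.58%, 9.1% and 4.75% then passed. When each genotype was fitted alone, 0 of the 9 genes passed in KO, with or without those libraries, where 0.0932% and 0.0854% of all tested genes did. The rhythm difference was called for 1 gene with median-of-ratios scaling (Gatm), where 0.808% of all tested genes were called. It was called for 2 genes with array weights (Gatm and Ckb, with 2.14% of all tested genes). Without both libraries it was called for 1 gene (Ckb, with 0.66% of all tested genes). The cause was not tested. Over all genes, KO rhythm calls were 468, against 12 with each genotype alone, 28 with the 6-level factor, 295 with no filter, 1171 with array weights and 272 without KO ZT0 B. WT rhythm calls were 1761, against 576 with the factor, 2843 alone and 3546 with weights. Rhythm differences were 81, against 23 with the factor, 43 with no filter, 54 without trend and robust, and 276 with weights, and 37 to 112 with 1 library left out. The labels do not say whether library letters pair the samples. A minus B deviations of WT and KO at the same time correlated at -0.0892 to 0.15. These values show no strong shared deviation but cannot exclude shared handling. With the letter as a replicate block the calls among the 9 genes stayed at 8, 4, 1 and 0. Of all tested genes, 61.2%, 14.3%, 4.08% and 0.59% were then called in the same 4 tests. Depth is unknown, and 2 libraries per group limit the precision.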

Other observations

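Ornithine made by arginase leads to polyamines and proline, and genes of both branches were listed. Of 14, 13 were tested, and 7 rose, 2 fell and 4 were not called, where 50.9% of all tested genes were higher and 10.0% lower in KO. Their median log2 change was 0.23, against 0.15 for all genes tested. Odc1, ornithine decarboxylase, the entry to polyamines and a gene known to respond to androgen in mouse kidney, fell from a mean of 427 to 139.5 TPM (-1.69, SE 0.15, adjusted p = 2.88e-07 by limma), with WT libraries at 282 to 554 TPM and KO libraries at 81.5 to 337 TPM. Without both libraries that stand apart it fell by 1.74. The other gene that fell was Azin1, an inhibitor of antizyme (-0.24, adjusted p = 0.00462), named after its values were seen. Aldh4a1, of proline breakdown, rose from 142 to 192 TPM (0.43, adjusted p = 5.52e-07) and Oaz1, an antizyme that leads Odc1 protein to degradation, from 483 to 593 TPM (0.29, adjusted p = 4.47e-06). Arg2 and Odc1, which act in sequence on arginine and ornithine, thus had changes of 2.78 and -1.69. The male-high kidney genes, summing to 31100 to 41000 TPM in WT and 10500 to 36000 TPM in KO, fell beside Odc1, and their part in its change was not tested. After median-of-ratios scaling 5 genes of the list rose and 3 fell, where 44.1% of all tested genes were called, 48.7% of them higher. Without both libraries 7 rose and 2 fell, where 61.3% of all tested genes were called, 83.1% of them higher.

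In WT, 4 of the 13 genes were rhythmic: Paox, polyamine oxidase (0.78 log2 units peak to trough, peak 9.99 h, adjusted p = 3.42e-04), Srm, spermidine synthase (0.60, peak 18.1 h, adjusted p = 0.0178), Prodh, proline dehydrogenase (0.48, peak 10.9 h, adjusted p = 0.0304), and Amd1, which supplies the aminopropyl donor (0.81, peak 20.3 h, adjusted p = 0.0324). None passed in KO, where 5 had an unadjusted p under 0.05, and no rhythm difference passed, with 2 at that level. Of all tested genes, 13.7% passed in WT, 3.64% in KO and 0.629% in the difference. Without both libraries 4 passed in WT, 2 in KO and 1 differed, where 19.9%, 4.75% and 0.66% of all tested genes did.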
